A study of Mus musculus with 8 samples.

Results

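The genes described here are 10 factors of pre-mRNA splicing, measured in dendritic cell-restricted progenitors (CDPs) of mouse bone marrow (BM). They are the Cdc2-like kinases Clk1, Clk2, Clk3 and Clk4, the SR proteins Srsf2, Srsf3, Srsf5 and Srsf7, and the SR-like proteins Tra2a and Tra2b. They were chosen by name, with earlier results of these data known, and all 10 were found among the 16119 genes of the count table. The question was whether a high-fat diet altered their RNA levels. All mice were males on a C57BL/6J background by the study's methods, labelled C57BL/6. The high-fat diet (HFD) group, labelled DIO for diet-induced obesity, had received 60 kcal% fat for 16 weeks, and the chow-fed (CF) group, labelled DIO-Control, was an age-matched control on 10 kcal% fat. CDPs were sorted as lineage-negative cells with intermediate c-kit and low Sca1 that carried CD115 and Flt3, about 50000 for each library. Each diet had 4 libraries, of 28203651 to 38969160 counts in HFD and 32575696 to 48409689 in CF. The labels give 4 mice per diet but do not say whether each library held cells of 1 mouse, so p-values measure the spread between these libraries.

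SR proteins bind exonic enhancer sequences through an RNA recognition motif and recruit the spliceosome through a tail rich in arginine-serine (RS) repeats. CLK kinases phosphorylate these tails in the nucleus, which releases SR proteins from nuclear speckles. Tra2a and Tra2b have RS regions on both sides of 1 RNA recognition motif and activate splicing of exons rich in GAA. Many of these genes limit their own protein by splicing: a poison exon, a skipped exon or a retained intron gives an RNA that is degraded by nonsense-mediated decay (NMD) or kept in the nucleus.

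Such transcripts are annotated for every one of the 10 genes in GENCODE vM21 on GRCm38, the genome build of the study. Clk1 (ENSMUSG00000026034) lies at chr1:58410189-58424066 on the minus strand and has 13 transcripts, of which 1 is coding, 2 are NMD targets and 7 retain an intron. Clk4 (ENSMUSG00000020385), at chr11:51261730-51281766 on the plus strand, has 4 coding, 3 NMD and 7 retained-intron transcripts. Clk2 (ENSMUSG00000068917) is at chr3:89164795-89176921 on the plus strand and Clk3 (ENSMUSG00000032316) at chr9:57750624-57765860 on the minus strand. The SR protein genes are Srsf2 (ENSMUSG00000034120, chr11:116849901-116853094, minus), Srsf3 (ENSMUSG00000071172, chr17:29032628-29043373, plus), Srsf5 (ENSMUSG00000021134, chr12:80945504-80950507, plus) and Srsf7 (ENSMUSG00000024097, chr17:80200080-80207307, minus). Tra2a (ENSMUSG00000029817) is at chr6:49243924-49264033 and Tra2b (ENSMUSG00000022858) at chr16:22244549-22266005, both on the minus strand. A gene-level count adds up the coding, NMD and retained-intron forms, so the values below are totals over forms that differ in the protein they give.

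In each Clk gene an NMD transcript lacks 1 coding exon. These exons are shown because they set the boundary of what the counts can resolve: full-length and skipped RNA of a Clk gene both contribute to its single value. The Clk1 exon (chr1:58420121-58420211, minus) and the Clk4 exon (chr11:51273078-51273168, plus) each have 91 bases, of which 85 are identical, or 93.4%, and capitals mark the 6 that differ. The exons of Clk2 (chr3:89169615-89169702, plus) and Clk3 (chr9:57758627-57758723, minus) have 88 and 97 bases. All are from GENCODE vM21 transcripts, 5′ to 3′.
Clk1: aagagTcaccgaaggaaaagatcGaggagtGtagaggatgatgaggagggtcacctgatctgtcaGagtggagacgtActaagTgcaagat
Clk4: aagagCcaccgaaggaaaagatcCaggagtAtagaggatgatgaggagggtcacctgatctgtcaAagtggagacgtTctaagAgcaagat
Clk2: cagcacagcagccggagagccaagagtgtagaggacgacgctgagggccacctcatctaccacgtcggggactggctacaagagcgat
Clk3: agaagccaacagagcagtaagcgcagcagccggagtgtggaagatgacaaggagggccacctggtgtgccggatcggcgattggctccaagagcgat
Despite this likeness, no stretch of 75 bases, the read length, was shared between transcripts of Clk1 or Clk4 and those of any other gene.

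Srsf3, Srsf7, Tra2a and Tra2b carry a poison exon, present in an NMD transcript, in which the reading frame meets an early stop codon. Each is shown from its first base to that stop codon, which stands in capitals, because these few bases separate the productive form from the degraded one. The whole exons are 456 bases in Srsf3 (chr17:29039454-29039909, plus), 460 in Srsf7 (chr17:80204622-80205081, minus), 306 in Tra2a (chr6:49252803-49253108, minus) and 276 in Tra2b (chr16:22258986-22259261, minus).
Srsf3: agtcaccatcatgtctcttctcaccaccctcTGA
Srsf7: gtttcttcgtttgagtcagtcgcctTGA
Tra2a: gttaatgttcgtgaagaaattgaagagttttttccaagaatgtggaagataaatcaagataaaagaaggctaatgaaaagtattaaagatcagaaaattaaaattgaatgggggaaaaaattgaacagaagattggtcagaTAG
Tra2b: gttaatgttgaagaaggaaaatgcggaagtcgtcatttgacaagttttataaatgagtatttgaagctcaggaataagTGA
The open part runs for 34 bases in Srsf3 and 28 in Srsf7, against 144 in Tra2a and 81 in Tra2b.

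The RS tail itself is the part of the protein that the CLK kinases act on. The 20 codons with the most RS or SR dipeptides are shown for Srsf2 (chr11:116852256-116852315, minus, 17 dipeptides) and Srsf3 (chr17:29041232-29041291, plus, 7 dipeptides), the densest and the sparsest of the 4 SR proteins in such a stretch. Capitals mark codons that belong to an RS or SR dipeptide.
Srsf2: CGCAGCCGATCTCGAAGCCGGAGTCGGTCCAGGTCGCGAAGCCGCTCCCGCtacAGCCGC
Srsf3: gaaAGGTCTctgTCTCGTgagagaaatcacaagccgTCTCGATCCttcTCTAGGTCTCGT
Over the whole protein, RS or SR dipeptides numbered 52 in the 221 residues of Srsf2, 55 in 238 of Srsf7, 49 in 270 of Srsf5 and 25 in 164 of Srsf3. Tra2a had 40 in 282 residues and Tra2b 50 in 288. The kinases had fewer per residue, with 9 in the 481 residues of Clk4, 15 in 483 of Clk1, 26 in 638 of Clk3 and 21 in 500 of Clk2. In RefSeq promoters of 300 bases (GRCm38.p6), found for 9 of the 10 genes, CCAAT on either strand was present in 4 (Clk2, Srsf2, Srsf3 and Tra2a), against 37.4% of 32851 promoters. GAANNTTC and TTCNNGAA, which read the same on both strands, were each present in 1 of the 9, that of Tra2b, against 7.86% and 8.52% of all promoters.

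1 library stood apart from the rest. In HFD replicate 1, the summed level of 10 neutrophil markers was 20030 CPM (counts relative to the library's size, scaled by TMM), against 931.3 to 3542 in the other HFD libraries and 1891 to 6415 in CF. All 10 neutrophil markers were detected in every library. Flt3, a marker used in the sort, was 88.83 CPM in that library against 227.5 to 378 in the other 7, while Csf1r (the gene of CD115) was 93.62 against 79.36 to 132.9. Cd34, a progenitor marker, was 23.43 CPM there against 45.87 to 107.5 elsewhere, and Kit was between 34.17 and 53.57 CPM in the 8 libraries. The summed erythroid list was 412.7 CPM in HFD replicate 1 and 70.13 to 111.7 elsewhere. The log2 fold change of each of the 10 genes is therefore given with and without this library. RNAs of at most 200 nt without a coding sequence took 8.5% to 13.57% of the counts in HFD and 21.68% to 33.91% in CF. In sorted bulk cells, fewer cells of a type and less RNA per cell cannot be told apart.

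None of the 10 genes differed between HFD and CF in edgeR's quasi-likelihood test with Benjamini-Hochberg adjustment over the 15837 genes tested. All 10 passed the filter on low counts. The lowest adjusted p was 0.7391, for Clk1, and none of the 10 had an unadjusted p below 0.05. DESeq2 and limma's voom also called 0 of the 10. Over all genes, the calls took in 0.423% on the lower side of HFD and 0% on the higher side at an adjusted p below 0.05, and 5.34% and 3.22% had an unadjusted p below 0.05 in these directions. The CPM ranges of HFD and CF overlapped for all 10, whereas 3.58% of all genes lay wholly lower and 2.58% wholly higher in HFD. Of the 10, 5 had a fitted log2 fold change below 0 and 5 above it, with a median of 0.016, beside a median of 0.055 over all genes tested.

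The precision of these differences was set by the spread between libraries. Counts per gene and library ran from 606 for Clk3 to 7345 for Srsf2, so counting error was at most 4.06% (coefficient of variation). The 95% intervals of the log2 fold changes reached 0.295 to either side in the median gene. The widest bound on the low side was 0.653-fold (Clk1) and on the high side 1.43-fold (Tra2b). Sizes within these intervals are those the 4 libraries per diet leave possible. The largest fitted size among the 10, 0.271, exceeded the sizes of 67.4% of all genes tested, whose median was 0.170.

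**Figure D1:**
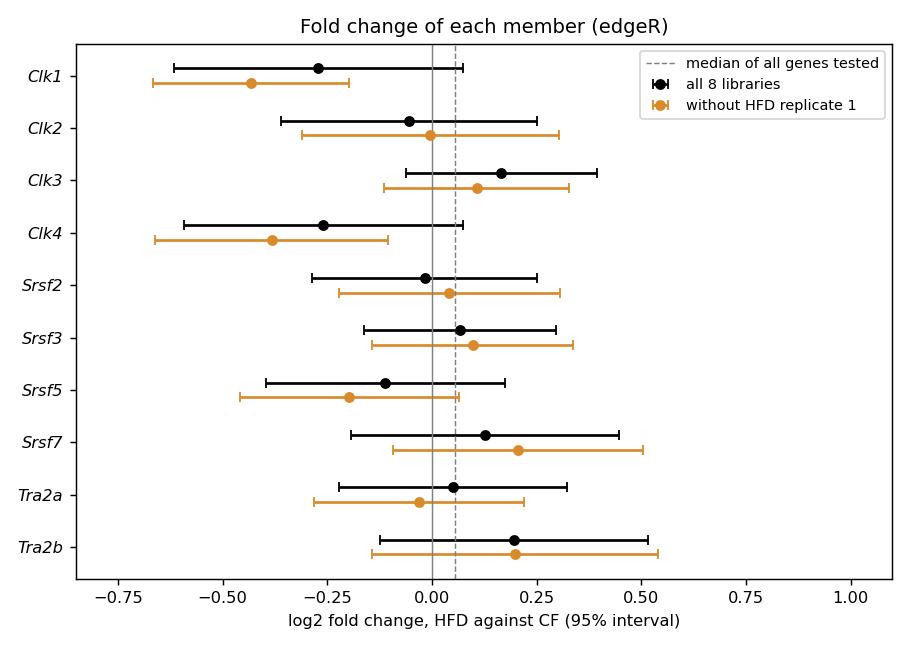
Log2 fold change of each gene in HFD against CF (x axis) with its 95% interval, from edgeR on all 8 libraries (black) and without HFD replicate 1 (orange); the dashed line is the median of all genes tested, 0.055. All black intervals cross 0, while without HFD replicate 1 those of Clk1 and Clk4 lie below 0.

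Among the kinases, Clk1 and Clk4 had the lowest fitted values. Clk1 was at 83.51, 61.0, 54.39 and 54.63 CPM in HFD replicates 1 to 4 and at 81.47, 68.83, 74.07 and 81.45 in CF. Thus 3 HFD libraries lay below every CF library, and HFD replicate 1 lay above every one. The means were 63.4 ± 13.8 in HFD and 76.5 ± 6.16 in CF (SD, n = 4), with a log2 fold change of -0.27 (SE 0.15, edgeR adjusted p = 0.7391). Without HFD replicate 1 the groups no longer overlapped and the log2 fold change was -0.43 (SE 0.10, 95% interval -0.67 to -0.20). The unadjusted p was then 0.002353 and the edgeR adjusted p 0.09121, still not called.

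Clk4, the closest relative of Clk1, was at 41.91, 35.96, 27.47 and 29.1 CPM in HFD and at 42.84, 42.21, 35.74 and 40.03 in CF. HFD replicates 3 and 4 lay below all CF libraries, and the other HFD libraries lay within the CF range. The means were 33.6 ± 6.65 in HFD and 40.2 ± 3.21 in CF (SD, n = 4). The log2 fold change was -0.26 (SE 0.15, edgeR adjusted p = 0.7435), and without HFD replicate 1 it was -0.38 (SE 0.12, unadjusted p = 0.01252, edgeR adjusted p = 0.1859), with overlapping ranges.

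Clk1 and Clk4 were the only 2 of the 10 genes with an unadjusted p below 0.05 once HFD replicate 1 was left out, and both fitted lower. In that comparison 9.76% of all genes reached this in the same direction, and the calls took in 1.05% on the lower and 0.214% on the higher side. Clk1 alone of the 10 was wholly below CF, as were 6.63% of all genes. The immediate early genes, which respond within minutes to growth factors, stress and cell handling, were also lower in sum in HFD replicates 2 to 4 than in the other libraries. Their sum over 11 genes was 754.9 CPM in HFD replicate 1 and 200.3, 227.8 and 162.2 in HFD replicates 2 to 4, against 496.7 to 816.4 in CF. HFD replicate 1 thus lay within the CF range of the sum, although for 2 of the 11 genes, Jun and Fosb, it lay below every CF library. With all libraries, 3 of the 11 had an unadjusted p below 0.05 and 0 were called by edgeR. Without HFD replicate 1, all 11 lay wholly below CF and 9 were called lower. Their part in the values of Clk1 and Clk4 was not tested, nor was that of the neutrophil markers.

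Clk2 and Clk3 did not share this pattern. Clk2 was at 23.36, 28.69, 26.94 and 25.87 CPM in HFD and at 28.37, 22.49, 25.32 and 32.75 in CF, so the HFD libraries lay inside the CF range. Its log2 fold change was -0.06 (SE 0.13, edgeR adjusted p = 0.9646), -0.004 without HFD replicate 1 and 0.05 without CF replicate 4. Clk3 was the one kinase with a fitted value above 0. It was at 24.23, 19.38, 21.41 and 21.33 CPM in HFD and at 19.59, 19.28, 19.71 and 18.38 in CF, with 3 HFD libraries above every CF library. The log2 fold change was 0.17 (SE 0.10, edgeR adjusted p = 0.7718) and without HFD replicate 1 it was 0.11 (adjusted p = 0.6483). Clk3 shares 1284 exonic bases with Edc3, a decapping factor gene on the opposite strand, and 13.1% of its 75-base stretches also occur there. Whether counting used strand is not given in the sources used here, so reads of Clk3 and Edc3 may not have been separated. Edc3 had a log2 fold change of 0.10 (SE 0.11), and 0.055 to 0.158 with 1 library left out.

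**Figure D2:**
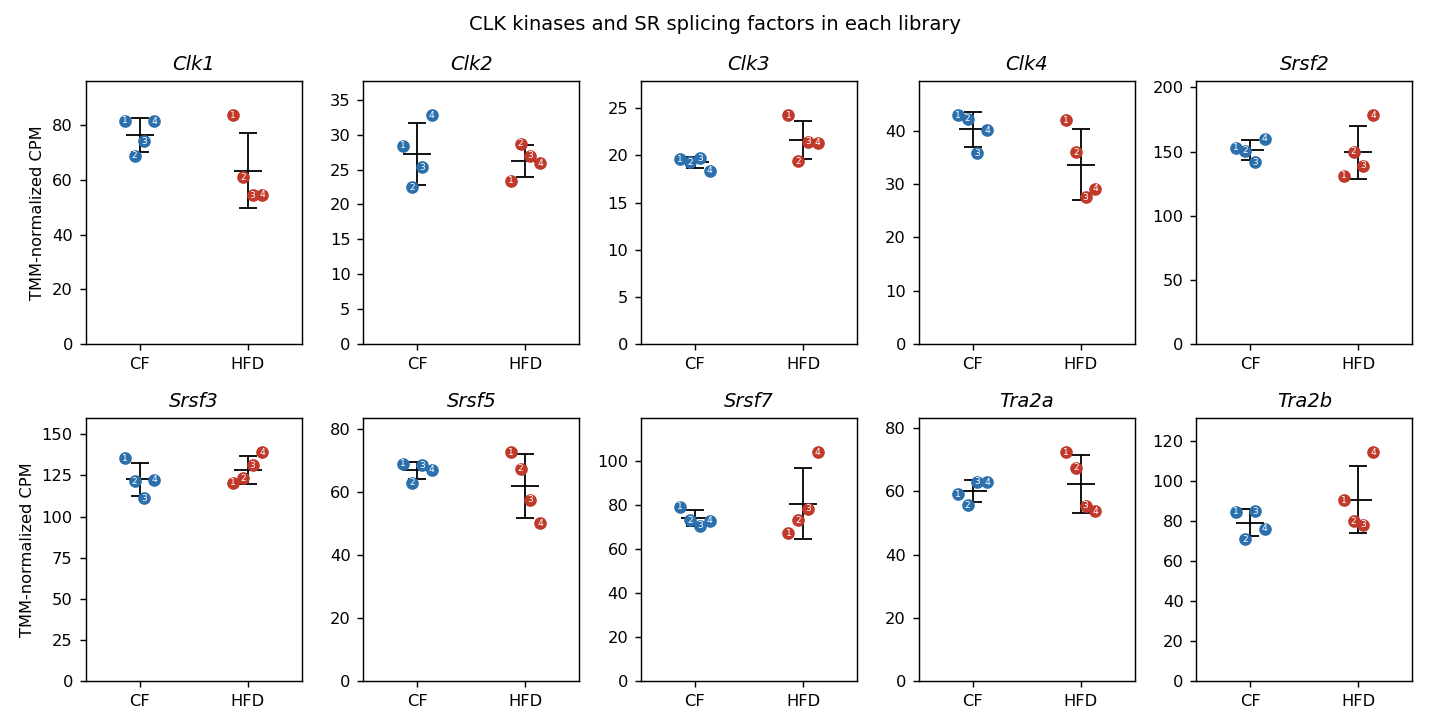
Level of each gene in TMM-scaled CPM (y axis, linear from 0) in the CF (blue) and HFD (red) libraries, 1 panel per gene; numbered points are replicates, and black bars are group means with the SD (n = 4). For Clk1, HFD replicates 2 to 4 lie below the 4 CF points and HFD replicate 1 lies above them.

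The 4 SR proteins had no called difference. Srsf2, which promotes exon inclusion and also acts in transcription elongation, was at 131.0, 149.8, 139.1 and 178.2 CPM in HFD and at 153.1, 150.5, 141.6 and 160.0 in CF. The lowest and the highest library were both HFD. The log2 fold change was -0.02 (95% interval -0.29 to 0.25, edgeR adjusted p = 0.9867), 0.04 without HFD replicate 1, 0.02 without HFD replicate 3 and 0.01 without CF replicate 4. Srsf2 shares 460 exonic bases with Mettl23 and 288 with Mfsd11, both on the opposite strand and both much lower, with CF means of 10.8 and 6.36 CPM. Of the 75-base stretches of Srsf2, 18.5% also occur in these neighbours, whose log2 fold changes were -0.07 (SE 0.13) and 0.14 (SE 0.18). With 1 library left out, Mfsd11 ran from 0.041 to 0.203.

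Srsf3, the smallest SR protein, which also couples splicing to mRNA export, was at 120.4, 123.3, 131.1 and 139.2 CPM in HFD and at 135.5, 121.5, 111.1 and 122.5 in CF. HFD replicates lay within or just above the CF range. Its log2 fold change of 0.07 had a 95% interval of -0.16 to 0.30 (edgeR adjusted p = 0.9324), and it was 0.10 without HFD replicate 1 and -0.01 without HFD replicate 4. Srsf7, a zinc knuckle SR protein that also acts in export, was at 67.17, 73.18, 78.39 and 104.2 CPM in HFD and at 79.2, 73.13, 70.7 and 72.88 in CF. HFD replicate 4 was the highest of the 8, and the other HFD libraries lay within or below the CF range. The log2 fold change was 0.13 (SE 0.14, edgeR adjusted p = 0.8945), 0.21 without HFD replicate 1 and -0.06 without HFD replicate 4.

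Srsf5 was at 72.69, 67.36, 57.53 and 50.09 CPM in HFD and at 68.99, 62.91, 68.55 and 67.03 in CF. Like Clk1 and Clk4, it was lowest in HFD replicates 3 and 4, and HFD replicate 1 was the highest library. The log2 fold change was -0.11 (SE 0.13, edgeR adjusted p = 0.8973), -0.20 without HFD replicate 1 (adjusted p = 0.4688) and -0.06 without HFD replicate 4. Srsf3 and Srsf5 share 7.64% and 7.32% of their 75-base stretches with other gene models, for Srsf3 AC141429.1, Gm12355 and Gm9761 and for Srsf5 Gm12966. How reads from these stretches were assigned was not tested.

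The TRA2 proteins also had no called difference. Tra2a was at 72.43, 67.48, 55.44 and 53.68 CPM in HFD and at 59.15, 55.54, 62.98 and 62.92 in CF, so that HFD held the 2 highest and the 2 lowest libraries. Its log2 fold change was 0.05 (95% interval -0.22 to 0.32, edgeR adjusted p = 0.9646), and -0.03 without HFD replicate 1. Tra2b was at 90.37, 79.69, 78.05 and 114.4 CPM in HFD and at 84.68, 70.8, 84.84 and 76.1 in CF. HFD replicates 1 and 4 lay above every CF library. With a log2 fold change of 0.20 (SE 0.14, edgeR adjusted p = 0.8128) Tra2b had the highest fitted value of the 10, and it was 0.20 without HFD replicate 1 too. Without HFD replicate 4 it was 0.02. Tra2b shares 5.53% of its 75-base stretches with Chrna1, Psmd11 and 4 other gene models. Gm43980, which overlaps the span of Tra2a on the opposite strand without exonic overlap, had a log2 fold change of -0.05 (SE 0.21).

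The spread among libraries was compared within each diet. The coefficient of variation was larger in HFD for 8 of the 10, the exceptions being Clk2 (8.51% against 16.1%) and Srsf3 (6.58% against 8.15%). It reached 21.7% for Clk1, 20.2% for Srsf7 and 19.8% for Clk4 in HFD, where their CF values were 8.06%, 4.93% and 7.99%. A larger spread in HFD was common, since 69.4% of 11775 protein-coding genes had it as well. For Clk1 the larger spread depended on HFD replicate 1, since HFD replicates 2 to 4 alone gave 6.62%, below the CF value. Without that library Clk4 was at 14.6% and Srsf7 at 19.5% in HFD, 7 of the 10 genes had the larger value in HFD, and so did 53.2% of protein-coding genes. Srsf7 was at 7.70% without HFD replicate 4. With all libraries the median of the 10 was 15.5% in HFD and 6.95% in CF, beside 19.5% and 14.0% over protein-coding genes.

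The genes fell into differing profiles over the 8 libraries. HFD replicate 4 was the highest library for Srsf2, Srsf3, Srsf7 and Tra2b, at 0.44 above the mean on the log2 scale for Srsf7 and 0.45 for Tra2b. The same library was low for Clk1 (-0.34), Clk4 (-0.33) and Srsf5 (-0.35). HFD replicate 1 was high for Clk1 (0.28), Clk3 (0.25), Tra2a (0.25) and Clk4 (0.20). Among the 45 pairs, the closest profiles were those of Srsf5 and Tra2a (root mean square difference 0.098 on the log2 scale), Srsf2 and Srsf3 (0.108), Srsf2 and Srsf7 (0.110) and Clk1 and Clk4 (0.117). The farthest were Clk1 and Srsf7 (0.381). These are descriptions over 8 libraries that share their scaling factors.

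**Figure D3:**
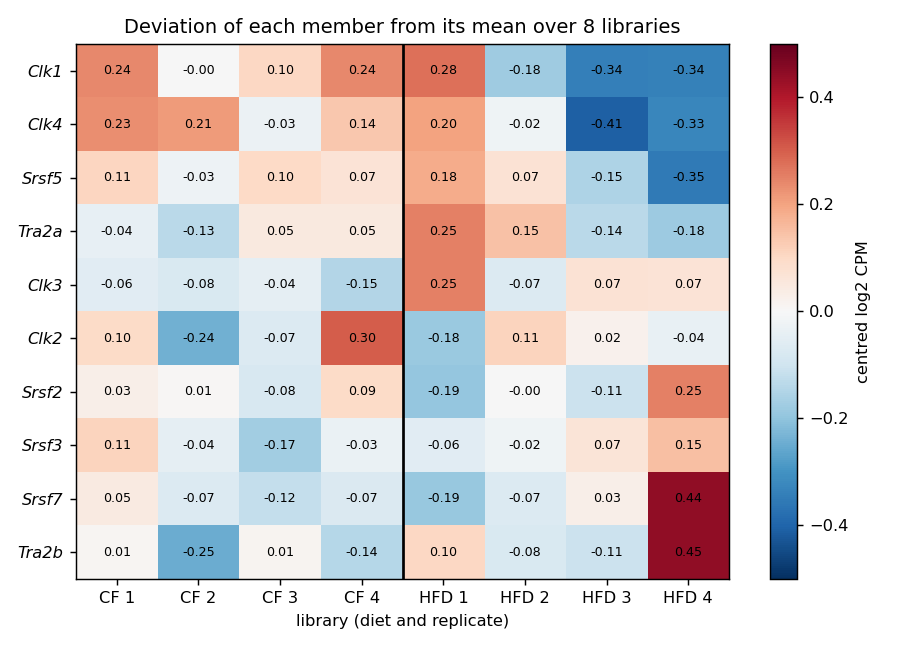
Heat map of log2 CPM of each gene (rows) in each library (columns), centred on the gene's mean over the 8 libraries; the number in each cell is the centred value. Clk1, Clk4 and Srsf5 are low in HFD replicates 3 and 4, whereas Srsf7 and Tra2b are highest in HFD replicate 4.

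Of all genes tested, those nearest to the profile of Clk1 by the same measure were Rb1cc1 (0.099), Rfx1 (0.10), Pam (0.103), Uimc1 (0.11) and Xpo6 (0.111), and Clk4 was the 7th. Nearest to the mean profile of the 10 genes were Casc3 (0.02), an exon junction complex component, Hnrnpa2b1 (0.034), Tcirg1 (0.037), Trmt1l (0.046) and Rap1gds1 (0.046). That mean profile was nearly flat, from -0.11 in HFD replicate 3 to 0.08 in CF replicate 1. Over the same libraries the 10 genes together took 0.0602% to 0.0867% of all counts.

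Ratios between 2 of the genes in the same library do not depend on the scaling. Of the 45 ratios, 3 did not overlap between the diets, or 6.67%, beside 3.34% of the pairs of protein-coding genes. These 3 were picked after their values were seen and are given without a test. Clk1 over Clk3 was 3.446, 3.148, 2.54 and 2.561 in HFD and 4.16, 3.571, 3.757 and 4.433 in CF. Clk1 over Tra2a was 1.153, 0.904, 0.9811 and 1.018 in HFD and 1.377, 1.239, 1.176 and 1.295 in CF. Srsf5 over Tra2a was 1.004, 0.9981, 1.038 and 0.9331 in HFD and 1.166, 1.133, 1.088 and 1.065 in CF.

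Levels of the 10 genes were compared as CPM per kb of annotated exon, averaged over the 8 libraries. Srsf2 was highest at 50.9 ± 4.87 (SD, n = 8), followed by Srsf7 at 21.8 ± 3.25, and neither overlapped the next gene in any library. Srsf5 (16.15 ± 1.84) and Srsf3 (15.9 ± 1.16) overlapped each other. Tra2b (9.19 ± 1.45), Tra2a (8.81 ± 0.94), Clk1 (8.60 ± 1.49), Clk4 (6.37 ± 1.03) and Clk2 (5.04 ± 0.62) formed a series in which each gene overlapped the next. Clk3 was the lowest at 2.42 ± 0.22 and overlapped none. Among protein-coding genes tested, Srsf2 stood at the 97.98th percentile of CPM per kb and Clk3 at the 44.54th.

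The order below Srsf2 depended on the length used. Per kb of the longest coding transcript, in place of all exons, Srsf3 came second at 48.0 CPM per kb, Srsf5 was at 41.1, Clk1 moved from rank 7 to rank 4 at 38.9, and Srsf7 moved from rank 2 to rank 6 at 32.2. Srsf2 remained first and Clk4, Clk2 and Clk3 the lowest 3. Clk1 has 8132 exonic bases but a longest coding transcript of 1796.

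**Figure D4:**
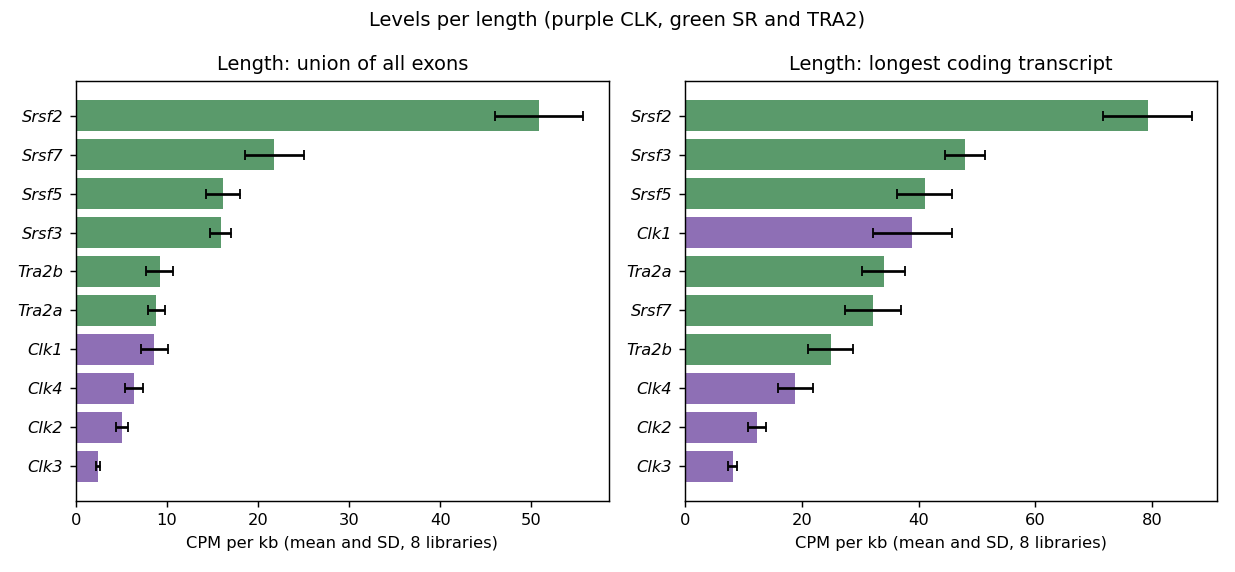
Mean CPM per kb (x axis, linear from 0) of each gene over the 8 libraries with the SD, per kb of all annotated exons (left) and of the longest coding transcript (right); kinases are purple, SR and TRA2 proteins green. Srsf2 is the highest (50.9 and 79.2) and Clk3 the lowest (2.42 and 8.18) in both, while Clk1 moves from rank 7 to rank 4.

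The remaining genes of the pathway also had few differences. The other SR proteins were all fitted above 0 in the 6 tested of 7 listed, with a median of 0.08, and 0 were called. Over all genes, 9447 of 15837 were fitted above 0. Srsf4 had the lowest p among them: it was at 44.42, 50.78, 54.91 and 58.48 CPM in HFD and at 37.11, 33.27, 46.35 and 46.63 in CF. These ranges overlapped, and the log2 fold change was 0.35 (SE 0.14, unadjusted p = 0.03575, edgeR adjusted p = 0.5053), and 0.42 without HFD replicate 1 (adjusted p = 0.1912). Srsf1, the founding member of the family, was at 0.15 (adjusted p = 0.8637), and at 0.005 without HFD replicate 4.

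Of 13 other genes listed as kinases, phosphatases and importers of SR proteins, 0 were called and 0 had an unadjusted p below 0.05. The lowest p values belonged to Dyrk3, a kinase that dissolves speckles (log2 fold change 0.48, edgeR adjusted p = 0.6698), and Ppp1ca, a protein phosphatase catalytic subunit (0.25, adjusted p = 0.7292). Of 25 hnRNP proteins, which often oppose SR proteins at exons, 0 were called and 0 had an unadjusted p below 0.05, with Hnrnpf at 0.23 (adjusted p = 0.6413) and Hnrnpa3 at 0.48 (adjusted p = 0.7952). Hnrnpf was at 0.11 without HFD replicate 4 and Hnrnpa3 at 0.81 without CF replicate 1. Without HFD replicate 1 still 0 hnRNP genes were called, but 2 had an unadjusted p below 0.05: Hnrnpa3 at 0.69 (adjusted p = 0.2641) and Hnrnpll, named after its value was seen, at -0.57 (adjusted p = 0.20). Over all genes in that fit, 9.76% reached this on the lower side and 760 of 15863 on the higher side. The 17 NMD and exon junction factors, which act on the poison-exon transcripts, likewise had 0 by both counts with all libraries, with Dhx34 at 0.26 (adjusted p = 0.7464). Without HFD replicate 1 the kinase and NMD lists again had 0 by both counts.

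The SR-related proteins, a list mainly of proteins with RS regions without the SR protein layout, had 1 of 34 called lower and 0 higher. Over all genes the shares were 0.423% and 0%. The list was chosen with earlier results of these data known, so its share called is not a test. The gene called was Ppig, a nuclear cyclophilin with an RS domain. It was at 24.87, 32.34, 37.1 and 29.12 CPM in HFD and at 51.19, 56.87, 51.86 and 55.54 in CF, without overlap. Ppig fell by 0.80 on the log2 scale (SE 0.13, edgeR adjusted p = 0.0441), and without HFD replicate 1 by 0.71 (adjusted p = 0.02493). The call did not hold in 10 of 16 alternatives: library size scaling, protein-coding genes alone, the replicate block and leaving out any library other than HFD replicate 1. There the adjusted p was between 0.05964 and 0.4633 and the log2 fold change between -0.90 and -0.61. Of the 34, 3 had an unadjusted p below 0.05, all lower, beside 5.34% of all genes.

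The other 2 were Luc7l and Rsrp1. Luc7l, a U1 snRNP-associated factor, was at 20.76, 21.87, 19.39 and 20.21 CPM in HFD and at 46.54, 34.0, 38.17 and 21.73 in CF (log2 fold change -0.77, edgeR adjusted p = 0.1778), and -0.78 without HFD replicate 1 (adjusted p = 0.1513). CF replicate 4 lay close to the HFD libraries, and without it Luc7l was called lower at -0.94 (adjusted p = 0.0252). DESeq2 called it on all libraries (adjusted p = 0.02294), and the other 14 of 16 alternatives did not. Rsrp1, an RS-rich protein gene, was at 47.69, 27.21, 23.51 and 32.96 CPM in HFD and at 50.98, 55.19, 45.5 and 51.41 in CF (-0.63, adjusted p = 0.3202). HFD replicate 1 lay within the CF range. Without it Rsrp1 was called lower, at -0.86 (adjusted p = 0.02493), so that 2 of the 34 were called, beside 1.05% of all genes. In that fit 5 of the 34 had an unadjusted p below 0.05, all lower, beside 9.76% of all genes. The median of the 34 was -0.03 with all libraries.

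**Figure D5:**
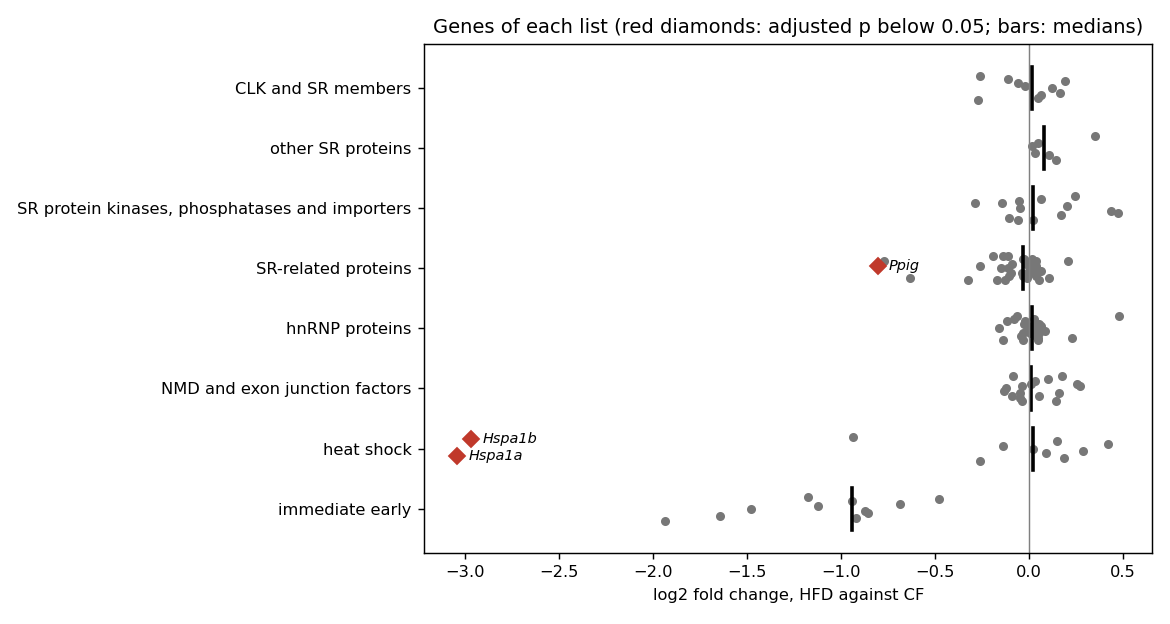
Log2 fold change in HFD against CF (x axis) of every tested gene in the 10 described here, in 5 lists of splicing genes and in the heat shock and immediate early lists (y axis), from edgeR on all 8 libraries; each point is a gene, black bars are medians and red diamonds are genes called at an adjusted p below 0.05. In the 10 genes and the splicing lists the medians lie between -0.03 and 0.08 and Ppig alone is called.

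Lists of other programmes were described in the same way. They too were chosen with earlier results of these data known, so their shares called are not a test. The heat shock list had a median of 0.02, with 5 of 11 genes fitted lower and 6 higher. In it 2 of 11 genes were called lower, with and without HFD replicate 1, Hspa1a at -3.04 and Hspa1b at -2.97 (both edgeR adjusted p = 0.03546), each called in 8 of 16 alternatives. Over all genes 0.423% were called lower with all libraries and 1.05% without HFD replicate 1. Reads of this near-identical pair may not be separable. Dnajb1, their co-chaperone, was at -0.94 (edgeR adjusted p = 0.0972). It was called lower by DESeq2 (adjusted p = 0.00123) and by edgeR without CF replicate 4 (adjusted p = 0.03025), and not in the other 14 of 16 alternatives. The immediate early genes had a median of -0.94, with Jun at -0.92 (adjusted p = 0.1437) and Fosb at -1.65 (adjusted p = 0.2038). Without HFD replicate 1 their median was -1.97, and Jun (edgeR adjusted p = 0.04844) and Fosb (edgeR adjusted p = 0.02682) were among those called lower. On all libraries DESeq2 called Jun (adjusted p = 0.00586) and Fosb (adjusted p = 0.005766) lower. B cell genes were all fitted higher in HFD, with 5 of 7 at an unadjusted p below 0.05, beside 3.22% of all genes, and 0 called by edgeR. Cd79a led at 0.88 (edgeR adjusted p = 0.1699). DESeq2 called it higher (adjusted p = 0.02573), and the other 15 of 16 alternatives did not. The B cell genes summed to between 46.47 and 108.8 CPM in the HFD libraries, against 46.63 to 76.41 under CF. Neutrophil genes had a median of 0.41 (0 of 10 called, Chil3 at 0.82 and Camp at 0.65), erythroid genes 0.93 (0 of 8 called, Epor at 2.29 and Car1 at 1.62), and the 4 sort markers -0.21 (0 called, Csf1r at -0.24 and Kit at -0.17). Without HFD replicate 1 the neutrophil median turned to -1.40 (6 of 10 with an unadjusted p below 0.05, all lower, beside 9.76% of all genes, and 0 called), the erythroid median was 0.04 with Epor at 0.99 and Car1 at 0.32, that of the B cell genes went from 0.85 to 0.59 and that of the sort markers was -0.11. Of the T and NK cell genes, 3 were tested and 0 called, with a median of -0.09, or -0.56 without HFD replicate 1; Cd3e and Cd3g were left out by the filter and Cd3d was at 0 in CF replicate 1. The part of these markers in the values of the 10 genes was not tested.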

How the data were processed

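The gene-level counts were deposited by the authors and hold raw, unnormalized reads per gene. The methods and the submitters' notes name FastQC, cutadapt, HISAT2 on GRCm38 with uniquely mapped paired reads, and StringTie with GENCODE; versions and strand setting are not given in the sources used here. Libraries were made with the NuGEN Ovation Solo system. The 10 genes and all lists were chosen with earlier results of these data known. Low genes were removed with filterByExpr (282 of 16119), and HFD was compared with CF in R 4.3.3 with edgeR 4.0.16 (TMM scaling, robust quasi-likelihood fit, diet as the only term, Benjamini-Hochberg over 15837 genes, called at an adjusted p below 0.05). The study's own model used FPKM and was not used here. CPM are TMM-scaled, and profiles used a prior count of 2. Named genes were the 10, genes overlapping them, the 2 with the lowest p and every called gene of each list, and the 5 nearest profiles. Values of 1 such gene are not reported here. The fit was also run on simulated data with larger fold changes than those of the 10 genes, so that run does not bear on differences of their size. Annotation was GENCODE vM21, and 16067 genes matched. Alternatives were RLE or library size scaling, protein-coding genes alone, other filters, DESeq2 1.42.0, limma 3.58.1 (voom), a replicate block and leaving out each library. Depth bears on precision as counting error, which intervals over replicates include.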

Additional observations from a re-analysis of the deposited data

How the results depend on the processing

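None of the 10 genes was called under any of the 16 alternatives, where the lowest adjusted p was 0.09121 (edgeR, Clk1 without HFD replicate 1). DESeq2 and voom were each run as an alternative on all libraries, and the other alternatives used edgeR. Of 160 log2 fold changes, 150 kept their direction and 10, in 6 genes, reversed. Scaling by library size alone moved the median of all genes from 0.055 to 0.248 and that of the 10 genes from 0.016 to 0.203, and turned Clk2 to 0.122, Srsf2 to 0.172 and Srsf5 to 0.08, still below the median of all genes. Leaving out 1 library at a time gave -0.152 to 0.042 for Srsf2, -0.031 to 0.101 for Tra2a, -0.013 to 0.119 for Srsf3, -0.06 to 0.206 for Srsf7 and -0.136 to 0.046 for Clk2. Clk1 ran from -0.432 to -0.205, Clk4 from -0.383 to -0.174 and Tra2b from 0.024 (without HFD replicate 4) to 0.262. Counts over all genes were less stable than these. The 67 called lower became 0 among protein-coding genes alone, 503 with DESeq2, 0 with the replicate block and 0 to 166 without 1 library, and the 0 called higher became 10 with library size alone, 64 with DESeq2 and 0 to 34 without 1 library. Among the fits without 1 library, the most were called without HFD replicate 1 (166 lower, 34 higher) and without CF replicate 4 (154 lower). Without HFD replicate 2 or 4 it was 1 lower, and without HFD replicate 3 or CF replicate 1, 2 or 3 it was 0. The cause was not tested. Between samples of the same replicate number, deviations from the diet means correlated at -0.439, -0.078, -0.233 and -0.179 over genes. These values cannot decide whether samples were paired, since HFD replicate 1 stood apart from the rest. With the block an unadjusted p below 0.05 was reached by 675 genes on the lower and 236 on the higher side. Levels per kb of all 10 genes rose with the longest coding transcript as length, which follows from its being shorter than all exons together. Gene-level counts hold all splice forms, so a shift between them at a constant total would not appear. Among other named genes, Chil3 turned to -0.284 with voom and -0.716 with the block, and Camp to -0.375 and -0.739. Leaving out 1 library gave -1.103 (without HFD replicate 1) to 1.175 for Chil3, -1.151 (without HFD replicate 1) to 1.009 for Camp, -0.141 to 0.02 for Mettl23 and -0.199 to 0.048 for Gm43980. The same ranges were -0.318 to -0.154 for Csf1r and -0.301 to -0.078 for Kit. With library size alone Kit was 0.021, Mettl23 0.133 and Gm43980 0.143.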
